A study of Mus musculus with 4 samples.

Results

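The Frizzled genes, Fzd1 to Fzd10, encode the cell-surface receptors for Wnt proteins. They were examined in mouse skin epithelial cells before and after serial culture with Wnt-3a. Members were all probes that the arrays name Fzd1 to Fzd10 and that are not controls, which gave 13 probes for 10 genes, out of 39429 probes on the array. Of these, 11 probes for 8 genes gave enough signal to be tested, out of 21660 such probes and 17376 genes in all.

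The 15p cells (15p-EpSCs) carried both CD49f (integrin alpha 6) and CD34 and were obtained after 15 successive cultures of 10 days in 60-mm collagen-coated dishes with Wnt-3a, each ending in a new sort for these surface proteins. The 0p cells (0p-EpSCs) were the CD49f+ CD34+ cells sorted from primary skin epithelial cells of adult C3H/HeN mice. No gene was altered in either group, and the labels list Wnt-3a as treatment for both RNAs, so it is not settled here whether the 0p cells had also met it. The comparison asks how transcript levels differ between the late and the starting cells. Each of 4 arrays received 15p RNA in one dye and 0p RNA in the other (Cy5 and Cy3), and each of 2 biological replicates was hybridised once in each dye orientation. Arrays are called by replicate and by the dye of the 15p RNA, as in replicate 1 Cy5. Separate animals are not named for the replicates in the labels. P-values and intervals rest on the spread between these 2 replicates, mostly pooled over all genes (8.88 prior against 1 residual degree of freedom). That spread may be technical, and the SD beside an interval is the gene's own.

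Frizzled proteins span the membrane several times and bind Wnt through a cysteine-rich domain outside the cell. With the co-receptors Lrp5 and Lrp6 they recruit Dishevelled and stabilise β-catenin, and with other partners they orient cells within a sheet, the process called planar cell polarity. In skin, Wnt signalling is known for its part in hair follicle formation and in the activation of follicle stem cells, and Fzd6 is known in mice for setting the direction in which hairs grow. By sequence the family falls into Fzd1, Fzd2 and Fzd7, then Fzd5 and Fzd8, then Fzd3 and Fzd6, and then Fzd4, Fzd9 and Fzd10.

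Each probe was a single spot of 60 bases, so a ratio for Fzd2, Fzd5 or Fzd7 can be set beside that of another probe of the same gene. The first pair of probes is shown because it is the one case in which probes of different Frizzled genes were alike: they share 42 of 50 aligned bases (84%), against 17 to 26 identical bases in the other 77 of 78 probe pairs compared. Capitals mark the shared bases. The Fzd2 probe (A_51_P404077) lies at chr11:102467613-102467672 and the Fzd7 probe (A_51_P142107) at chr1:59541367-59541426, both on the plus strand of mm9 in the arrays' annotation.
Fzd2: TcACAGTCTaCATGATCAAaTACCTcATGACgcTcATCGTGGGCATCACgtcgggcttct
Fzd7: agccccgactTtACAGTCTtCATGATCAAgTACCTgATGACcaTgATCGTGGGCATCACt
The second Fzd5 probe (A_51_P166456, chr1:64781972-64782030, minus strand) is also shown, and its ratios are given further on beside those of the first.
Fzd5: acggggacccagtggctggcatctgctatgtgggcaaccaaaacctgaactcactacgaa

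Of all non-control probes, 55% to 64.8% were well above background in the 15p channel and 56.5% to 68.1% in the 0p channel. Among 6 markers of the sorted basal cells, Itga6, Krt5, Krt14, Krt15 and Trp63 were measured in both RNAs. None of these 5 was called different (lowest limma adjusted p = 0.749). At a limma unadjusted p under 0.05, Krt14 (mean log2 ratio 0.19) and Krt15 (0.17) were higher in 15p cells, where 6.31% of all genes passed in either direction. Cd34, which encodes a protein used in the sort, was well above background on 0 arrays in 15p cells and on 1 in 0p cells. Of the markers of other cell types, 2 of 7 for fibroblasts, 2 of 5 for endothelium, 2 of 6 for immune cells and 2 of 5 for melanocytes passed the filter on low signals, and none of these 8 was called different. Their part in the Frizzled values was not tested. The arrays did not repeat each other closely, and the mean ratios of the 2 replicates correlated little across genes (r = 0.089). Within each dye-swapped pair, the 15p over 0p ratios correlated negatively across genes (r = -0.55 in replicate 1 and -0.40 in replicate 2). The replicate 2 Cy5 array had a wider spread of log2 ratios (SD 0.289) than the others (0.129 to 0.14). The 2 replicates lay on different slides, and the effects of slide and replicate cannot be told apart.

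Transcripts of 8 Frizzled genes (Fzd1 to Fzd7 and Fzd9) were measured in both 15p and 0p cells, and no difference between them passed the test. Of these 8 genes, 0 were called higher and 0 lower in 15p cells (limma on 2 replicate means, Benjamini-Hochberg adjustment over all genes at 0.05; lowest adjusted p = 0.749), where 0% of all tested genes were called. At an unadjusted p under 0.05 there was 1 Frizzled gene, Fzd5, which was lower, where 6.31% of all genes passed in either direction. The 95% intervals of the 8 genes lay between a 0.825-fold and a 1.2-fold level in 15p cells relative to 0p cells. They hold for the correction used, with its offset of 50, and leave out differences within dye-swapped pairs. On intensities as processed by the scanner software, the mean log2 ratio was 0.28 for Fzd9, above its interval here (upper end 0.26), and -0.21 for Fzd5. In RNA from bulk cells, fewer cells of a type and less RNA per cell cannot be told apart.

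**Figure D1:**
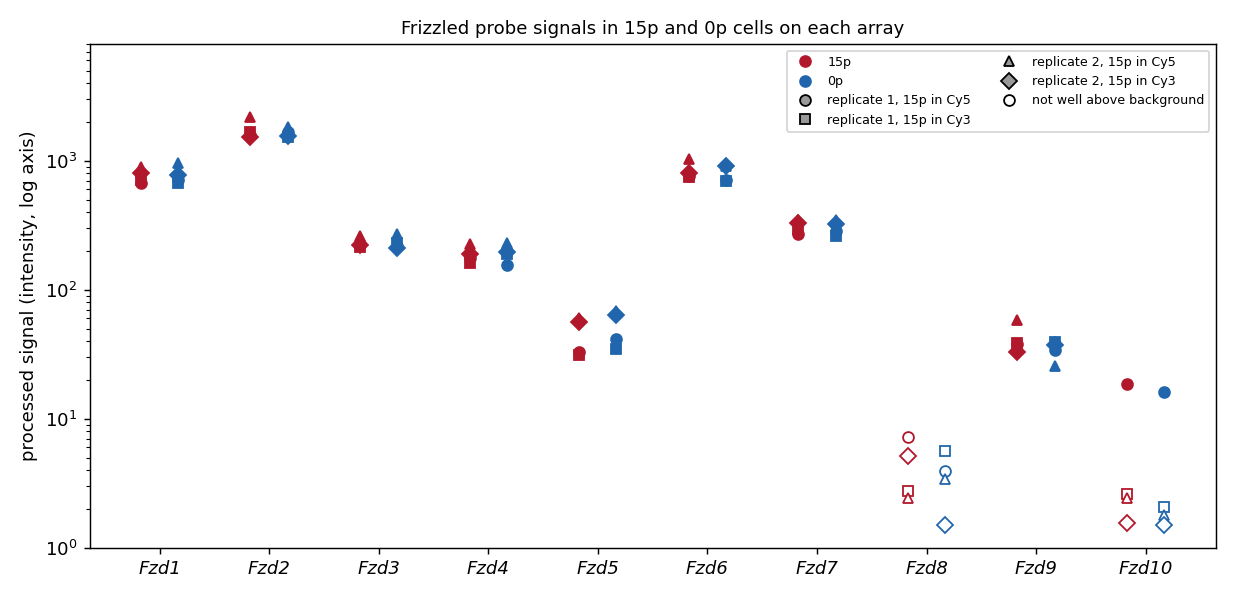
Processed signal (log axis) of each Frizzled probe in 15p cells (red, left) and 0p cells (blue, right) on the 4 arrays, with the probe used in the test for genes with 2. Signals of the 2 RNAs overlap for every gene, and Fzd8 and most Fzd10 points are open because they were not well above background.

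The signals given below are the scanner software's processed intensities, after its background subtraction and dye normalisation, in the order replicate 1 Cy5, replicate 1 Cy3, replicate 2 Cy5 and replicate 2 Cy3. Log2 ratios come from a separate correction of the raw signals and are 15p over 0p. Signals of different probes depend on the probe as well as the transcript, so the genes are not ranked by level.

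Fzd2 and Fzd7 gave measured but nearly equal signals in both RNAs, as did Fzd1. Fzd1 can transmit the β-catenin branch of Wnt signalling, and in mice it acts with Fzd2 in closure of the palate. Its probe read 676, 709.6, 900.5 and 805 in 15p cells, against 713, 677, 966 and 772 in 0p cells. The ranges overlapped almost fully. Its mean log2 ratio was -0.0095 ± 0.013 (SD, n = 2), with a 95% interval from -0.13 to 0.11 (limma adjusted p = 0.975). Fzd2 read 1594, 1667, 2183 and 1523 in 15p cells, against 1683, 1541, 1833 and 1545 in 0p cells. On 3 arrays its 15p signal lay between 1523 and 1667, and only the replicate 2 Cy5 array stood above that, at 2183. The mean log2 ratio was 0.071 ± 0.066 (SD, n = 2; interval -0.053 to 0.20; limma adjusted p = 0.82), and -0.0091 without that array.

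Fzd7, a receptor known from stem cells of the mouse intestine, read 270.1, 294, 349.5 and 327 in 15p cells, against 284, 264, 349.6 and 323 in 0p cells. Its mean log2 ratio of 0.018 ± 0.011 (SD, n = 2) had an interval from -0.10 to 0.14 (limma adjusted p = 0.956). Within replicate 1 the RNA in Cy3 gave the higher signal on both arrays. The replicate 2 arrays read higher in both RNAs than those of replicate 1.

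Fzd2 and Fzd7 each had a second kept probe. That of Fzd7, the one printed above, read 44.4, 40.6, 58 and 37.7 in 15p cells, against 47.6, 39.4, 38.4 and 41.5 in 0p cells. Its log2 ratio was 0.35 on the replicate 2 Cy5 array and between -0.085 and -0.0085 on the other 3 arrays, while the first Fzd7 probe had -0.0057 on that same array. On that array the printed Fzd2 probe had 0.28 and the second Fzd2 probe, which does not share the bases, had 0.12, in each case the probe's highest ratio. Differences between probes were not tested. Over both replicates the second Fzd7 probe averaged 0.0496 ± 0.12 (SD, n = 2). The second Fzd2 probe (A_52_P129428) was dim, with signals of 9.29 to 20.6 in 15p cells and 10 to 17.1 in 0p cells, and was well above background on 3 arrays in 15p cells and on 4 in 0p cells. The mean log2 ratio of that probe was 0.0057 ± 0.081 (SD, n = 2).

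**Figure D2:**
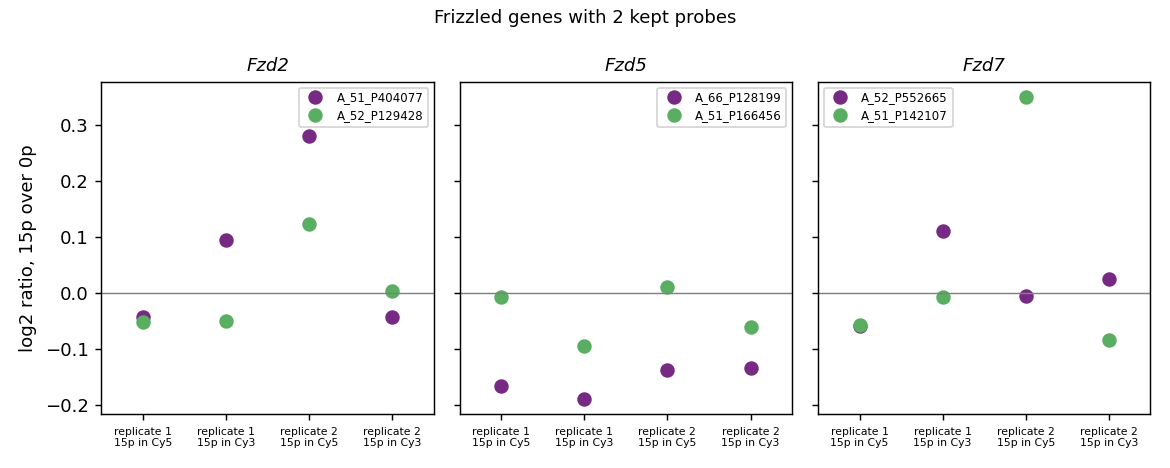
Log2 ratio of 15p over 0p on each of the 4 arrays for the 3 genes with 2 kept probes (purple, the probe used in the test; green, the other). The first Fzd5 probe lies between -0.19 and -0.13 on every array while the second reaches 0.010, and the second Fzd7 probe stands at 0.35 on the replicate 2 Cy5 array.

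Fzd5 was the one tested Frizzled gene with a ratio of the same sign on 4 of 4 arrays. Fzd5 is needed in mice for blood vessel growth in the yolk sac and for maturation of Paneth cells in the intestine. Its first probe (A_66_P128199) read 32.95, 31.3, 60.1 and 56.7 in 15p cells, against 41.6, 34.8, 69 and 63.4 in 0p cells. The 15p signal was the lower one on each array, although the ranges of the groups overlapped, because both RNAs read higher in replicate 2. The log2 ratios on the 4 arrays were -0.17, -0.19, -0.14 and -0.13. Their mean was -0.16 ± 0.030 (SD, n = 2), with an interval from -0.28 to -0.036, or a 0.825- to 0.975-fold level in 15p cells.

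That Fzd5 difference did not pass the test across genes (limma adjusted p = 0.749; unadjusted p = 0.016). A larger absolute ratio was found for 3.92% of all tested genes, and 3.11% of all genes were lower in 15p cells on 4 of 4 arrays. The second Fzd5 probe read 19.6, 17.4, 18.6 and 21.7 in 15p cells, against 18.9, 15.4, 19.3 and 21.7 in 0p cells. Its signals hardly differed between the RNAs, and its log2 ratios ran from -0.096 to 0.010. In a fit over 21660 probes the second probe had -0.039 (interval -0.16 to 0.084; limma adjusted p = 0.88) and the first -0.16 (interval -0.28 to -0.034; limma adjusted p = 0.787). These intervals overlap, and the difference between the probes was not tested.

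The 3 genes whose ratios lay closest to those of Fzd5 over the 4 arrays were Gm4944, Dcun1d3 and Gm20767, at Euclidean distances of 0.0667, 0.071 and 0.0749 log2 units. Dcun1d3 encodes a factor of the NEDD8 conjugation pathway. Its ratios were -0.18, -0.13, -0.12 and -0.17. In all, 6 genes lay within 0.1 of Fzd5, and these likenesses are descriptions over 4 arrays, of which the pair within a replicate carried the same RNAs.

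Fzd8, the closest relative of Fzd5 and a receptor with known roles in eye and forebrain development, was not well above background on any array in either RNA. Its mean spot signals were 68.6, 56.95, 52.2 and 77.7 in 15p cells, against 57.2, 66.4, 83.8 and 57 in 0p cells. For the negative control spots, the 95th percentile was 60.9, 59.1, 54.8 and 68.65 in the 15p channels and 53.6, 62.15, 85.5 and 57.7 in the 0p channels. The probe was above that percentile on 2 of 4 arrays in each RNA, and never on the software's own criterion. Its level is therefore given here only as not well above background.

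Fzd6 and Fzd3, the receptors best known for planar cell polarity, also had intervals that included 0. Fzd6 read 761, 744, 1025 and 804 in 15p cells, against 714, 698, 908 and 907 in 0p cells. It was higher in 15p cells on 3 arrays and lower on the replicate 2 Cy3 array, where its log2 ratio was -0.16. The mean was 0.0405 ± 0.060 (SD, n = 2; interval -0.083 to 0.16; limma adjusted p = 0.882). Fzd3, known in mice for the guidance of axons, read 225, 216, 264 and 222 in 15p cells, against 220.2, 232, 269 and 211 in 0p cells. Its signals overlapped in full, and its mean log2 ratio was -0.023 ± 0.044 (SD, n = 2; interval -0.14 to 0.099; limma adjusted p = 0.939).

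Fzd4 binds the secreted protein Norrin as well as Wnt proteins and is needed in mice for growth of retinal vessels. It read 177, 161, 228 and 191 in 15p cells, against 155, 188, 232 and 198 in 0p cells. Each RNA gave its highest signal on the replicate 2 Cy5 array, and the ranges overlapped. In replicate 1 the log2 ratio was 0.19 on the Cy5 array and -0.18 on the Cy3 array, so the pair cancelled to 0.0055. The mean of the replicates was -0.010 ± 0.022 (SD, n = 2; interval -0.13 to 0.11; limma adjusted p = 0.974).

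Fzd9, a receptor that acts in bone formation in mice, had the largest positive ratio of the tested Frizzled genes, which rested on 1 array. Its probe read 37.8, 38.7, 58.5 and 32.8 in 15p cells, against 34.1, 39.1, 25.9 and 37.1 in 0p cells. The other 3 arrays had 15p and 0p signals within a few units of each other. The replicate 2 Cy5 array held the highest 15p signal and the lowest 0p signal. Its mean spot signals there were 126.1 in 15p cells and 101.6 in 0p cells, where 95% of negative control spots lay below 54.8 and 85.5. The log2 ratio was 0.58 on that array and -0.13 on its dye swap, which carried the same RNAs. The mean was 0.12 ± 0.15 (SD, n = 2; interval -0.019 to 0.26; limma adjusted p = 0.75), and -0.0099 without that array. On the software's processed signals, which differ in background subtraction, offset and normalisation, the mean was 0.28 (limma adjusted p = 0.833), and which of these steps mattered was not tested. In the fit of 3 arrays without the replicate 1 Cy5 array, the log2 ratio of Fzd9 was 0.25, but that fit left 1 array in that dye orientation.

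Fzd10, the remaining member of that subfamily, known for its expression in human synovial sarcoma, was well above background on 1 array only, in both RNAs. That was the replicate 1 Cy5 array, where the mean spot signal was 97.9 in 15p cells and 71.1 in 0p cells. On the other 3 arrays it read between 51.8 and 60.6 in 15p cells and between 53.3 and 81.7 in 0p cells, below the negative control percentile of the same channel in each case. Fzd10 was not tested.

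**Figure D3:**
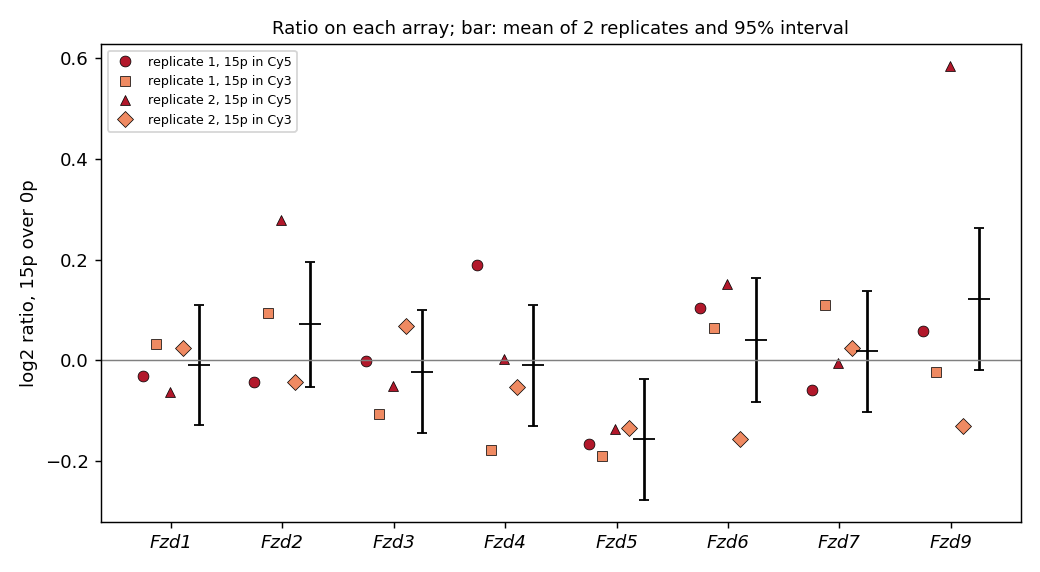
Log2 ratio of 15p over 0p on each of the 4 arrays for the 8 tested Frizzled genes, dark red with 15p in Cy5 and orange with 15p in Cy3, and beside them the mean of 2 replicates with its 95% interval. Fzd5 lies below 0 on all 4 arrays, and Fzd9 stands at 0.58 on the replicate 2 Cy5 array.

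As a group the Frizzled ratios lay where those of all genes lay. Their median log2 ratio was 0.0040, against 0.0025 over all tested genes, and their median absolute ratio was 0.032, against 0.046. The mean ratio was positive for 4 of 8 Frizzled genes (50%) and for 51.4% of all genes. The ratio had the same sign in both replicates for 4 of 8 (50%) and for 57% of all genes. A ratio of 1 sign on 4 arrays was found for 1 of 8 Frizzled genes (12.5%), against 6.78% of all genes. The largest absolute ratio of a gene fell on the replicate 2 Cy5 array for 3 of the 8, against 56.8% of all genes.

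The dye in which an RNA was labelled was examined because Fzd1, Fzd4, Fzd7 and Fzd9 had 15p over 0p ratios that changed sign with it. These were 4 of 8 genes (50%), where 32.3% of all genes were split this way. Fzd4 and Fzd9 were higher in Cy5 whichever RNA carried it, with mean log2 ratios of Cy5 over Cy3 of 0.11 and 0.20. Fzd1 and Fzd7 were higher in Cy3, with -0.037 and -0.0497, but higher in Cy5 with median centring in place of loess (0.37 and 0.28), a setting that put the median of all genes at 0.36. In the fit of 4 arrays with a dye term, 0 of 8 Frizzled genes were called for the dye (limma adjusted p of 0.294 or more), where 0.46% of all genes were called. At an unadjusted p under 0.05 there were 0 of 8, where 17.9% of all genes passed. That fit treated the 4 arrays as independent, though the arrays of a pair carried the same RNAs. With a replicate block added, 0 of 8 were again called for the dye, where 6.2% of all genes were called. The lowest value was then that of Fzd9 (limma adjusted p = 0.0866). With median centring, 6 of 8 were called for the dye, where 67.1% of all genes were called.

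The partners of Frizzled in the pathway showed no called change either. The 7 lists of other Wnt pathway genes held 101 genes, of which 52 were tested, and 0 were called higher and 0 lower in 15p cells. At an unadjusted p under 0.05 there was 1 gene higher and 0 lower of the 52, where 6.31% of all genes passed in either direction (508 higher and 588 lower). Their median log2 ratio was 0.016, against 0.0025 over all genes. The genes named next are the highest and the lowest of each list, and none passed the test.

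Among 22 genes for ligands and their secretion, 11 were tested. Wnt5a, a ligand best known for signalling without β-catenin, had the highest ratio, 0.19 ± 0.063 (SD, n = 2; limma unadjusted p = 0.0073, adjusted p = 0.749). Wnt7b, a β-catenin ligand of the epidermis, had the lowest, -0.034. Wnt3a, the transcript of the protein added to the cultures, was well above background on 0 arrays in 15p cells and on 0 in 0p cells. Of 10 co-receptors and partners, 4 were tested, from Ryk at 0.062 to Lrp5 at 0.0063.

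Of 10 genes that act on the removal of Frizzled from the surface, 4 were tested. They ran from Usp8, a deubiquitinase that spares Frizzled, at 0.028 to Rnf43, a ubiquitin ligase that removes it, at -0.025. The R-spondin genes Rspo1 to Rspo4, which oppose that ligase, were well above background on 0 arrays in 15p cells and on 0 in 0p cells. Of 17 genes for antagonists, 3 were tested, from Notum, an enzyme that inactivates Wnt proteins, at 0.019 to Sfrp1, a decoy that binds Wnt, at 0.00018.

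Inside the cell, 15 of 16 genes for Dishevelled and the β-catenin destruction complex were tested. Dvl1, a Dishevelled, was highest at 0.083, and Amer1, a scaffold that binds Apc, lowest at -0.12. Of 15 planar polarity partners, 9 were tested, from Prickle3 at 0.076 to Vangl1 at -0.055. Of 17 targets of β-catenin signalling, 9 were tested, from Tcf7, a transcription factor of the pathway, at 0.063 to Ephb3, a guidance receptor, at -0.049. Axin2, a commonly used readout of the pathway, was well above background on 0 arrays in 15p cells and on 0 in 0p cells.

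**Figure D4:**
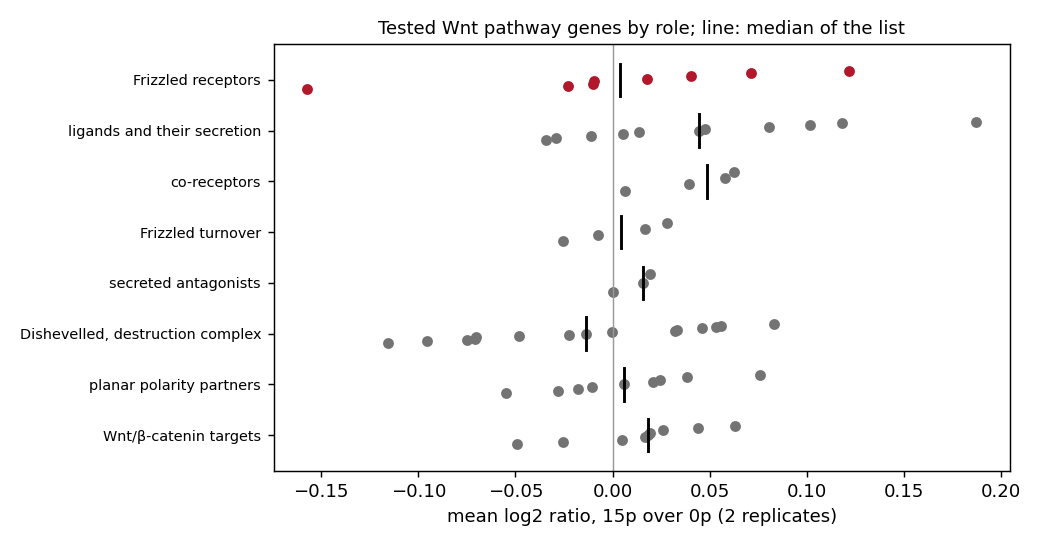
Mean log2 ratio of 15p over 0p (2 replicates) for each tested gene of the Frizzled family (red) and of the 7 other Wnt pathway lists (grey), with a line at the median of each list. The points run from -0.16 (Fzd5) to 0.19 (Wnt5a), and none passed the adjusted threshold.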

How the data were processed

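Expression was measured on 4 two-colour Agilent mouse arrays. The deposited files hold mean spot and background intensity per dye, from Agilent Feature Extraction 10.7.3.1 per the file headers and the submitters' processing notes, with processed intensity that was background-subtracted and dye-normalised. The deposited log10 ratios are of processed intensity, Cy5 over Cy3 (per the file headers), and other deposited columns are flags of 0 or 1 set by the software. The value table holds these log10 ratios (differing by at most 0.0045, each column's median 0), not turned for the dye swap. This match settled its scale and direction.

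In R 4.3.3 with limma 3.58.1, after import by data.table (version 1.17.8), mean signals were corrected with normexp (offset 50) and loess within arrays. Control spots (weight 0 in loess) and 154 to 286 flagged spots of 43020 an array were left out, and no spot was saturated. Probes well above background in one RNA, on 4 of 4 arrays, were kept, and the brightest kept probe stood for its gene. Symbols came from the RefSeq table of GRCm38.p6 where the accession matched (26055 probes), and probe positions are the files', in mm9. Dye-swapped arrays were averaged into 2 replicates and compared with 0 by lmFit and eBayes (two-sided, Benjamini-Hochberg over all genes, threshold 0.05). Differences within a dye-swapped pair are not part of the SD. The dye fit used 4 arrays with an intercept. The code was run on simulated data with equal noise on all arrays and a common dye effect. That does not check the test under the unequal spread of these arrays.

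All Frizzled genes were named, with the highest and lowest member of each Wnt list and the 3 genes nearest to the Frizzled gene of largest ratio. Members and lists were chosen with earlier results of these data known. The number of arrays limits the precision. The correlation of same-numbered arrays' deviations was -0.26. Alternatives changed the background correction, normalisation, filter, choice of probe, pairing and arrays used.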

Additional observations from a re-analysis of the deposited data

Results flagged for a closer look

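The 15p over 0p ratios of 4 Frizzled genes had opposite signs in the 2 dye orientations on both replicates. The mean log2 ratio of Cy5 over Cy3 was -0.037 for Fzd1, 0.11 for Fzd4, -0.0497 for Fzd7 and 0.20 for Fzd9. A fit with a dye term called none of the 4 (limma adjusted p = 0.725, 0.383, 0.639 and 0.294, in that order). With a replicate block added it also called none of them, and Fzd9 had limma adjusted p = 0.0866. With median centring in place of loess, Fzd1, Fzd4 and Fzd7 were called higher in Cy5 and Fzd9 was not, where 67.1% of all genes were called. The same split was found for 32.3% of all genes.

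Both genes left out of the test passed a level of the negative control spots on some arrays. The mean signal of Fzd10 on the replicate 1 array with Cy5-labelled 15p RNA was 97.9 in 15p cells and 71.1 in 0p cells, where 95% of the negative control spots lay below 60.9 and 53.6. Fzd8 was above the same percentile in 15p cells at 68.6 (replicate 1 Cy5 array) and 77.7 (replicate 2 Cy3 array), and in 0p cells at 57.2 and 66.4 (both arrays of replicate 1). The software did not flag any Fzd8 spot as well above background.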

How the results depend on the processing

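With 2 replicates, every alternative with a test called 0 Frizzled and 0 other Wnt genes, except the fit without the replicate 1 Cy5 array. That fit called Fzd9 and some of the other Wnt genes, but it left 1 array in that dye orientation. It also called many genes over the whole array (given below), so its calls are not read as results about these genes. Fzd5 was lower in 15p cells in all 17 alternatives (log2 ratio -0.21 to -0.098), but most of these could not have turned its sign. Some left its ratio unchanged, and leaving out arrays cannot turn a sign shared by all 4. Such settings are not separate checks. For 15p over 0p, the replicate block with a dye intercept called 0 genes, but it is the test on 2 replicate means in another form. It gave the Frizzled genes the same 15p over 0p ratios and p-values. The fit without the block also called 0 genes for 15p over 0p. For the dye the block did matter: 6.2% of all genes were called with it and 0.46% without it, with 0 Frizzled genes in either. Crossed pairing of the arrays, chosen after seeing the data, called 60 genes over the whole array, 7 of them higher. Without the filter on dim probes 1 gene was called over the whole array, the Frizzled median was -0.0084 and the median of the other Wnt genes 0.0063. Median centring in place of loess gave medians of 0.0199 and 0.032, turned Fzd1 to 0.013 and called 6 of 8 Frizzled genes for the dye, where it called 67.1% of all genes. The mean of a gene's probes gave medians of 0.012 and 0.0055. The median of the other Wnt genes was 0.0297 on processed signals and 0.0297 in the value table.

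Leaving out 1 replicate or 1 array gave 0 to 3120 genes called over the whole array (3120 without the replicate 1 Cy5 array, 88 without the replicate 2 Cy5 array, 1 and 0 without the others). It gave medians from -0.0054 to 0.0155 for the Frizzled genes and from -0.00051 to 0.0247 for the other Wnt genes. These 3-array fits assume that the array alone in its dye orientation varies like the others, and with 1 replicate no test was made. The sign of a ratio turned in at least 1 of these fits for Fzd1 (range -0.019 to 6.3e-05), Fzd2 (-0.0091 to 0.15), Fzd3 (-0.066 to 0.021), Fzd4 (-0.057 to 0.036), Fzd6 (-0.0145 to 0.095), Fzd7 (-0.0037 to 0.039) and Fzd9 (-0.0099 to 0.25). The causes were not tested.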
